A study of Mus musculus with 16 samples.

Results

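The cytosolic ribosomal protein genes were taken from the hippocampal RNA sequencing of 16 female mice by gene name alone: all genes named Rpl or Rps with a number, together with Rplp0, Rplp1, Rplp2, Rpsa and Fau, without pseudogenes. The rule matched 91 names, of which 6 were pseudogenes, and 80 of the remaining 85 genes had a mean of at least 10 raw counts over the 16 mice and are described here, out of 55335 genes in all. They comprised 45 genes of the large subunit, 32 of the small subunit and 3 paralogs, and all 80 passed the filter on low counts that was applied to all genes. Under the count minimum were Rpl10l (0 counts), Rpl39l (mean 2.06), Rpl3l (5.19), Rpl36al (9.25) and Rpl24 (9.56). The next member above it was Rps29, with a mean of 21.8 counts.

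The mice formed 4 groups of 4, named WT-D, WT-S, 3xTg-D and 3xTg-S. 3xTg mice model Alzheimer's disease and carry human APP (APPSwe) and tau (tauP301L) transgenes, both driven by the neuronal Thy1.2 element, and WT mice were of the background strain C57BL/6J x 129S1. All alleles of the 3xTg strain and any strain difference come together in each 3xTg mouse and cannot be told apart. S mice received CAY10566, an inhibitor of the fatty acid enzyme stearoyl-CoA desaturase (SCD), into a lateral ventricle by osmotic pump for 28 days at 80 µM. D mice received the vehicle, which contained 0.8% DMSO, as did that of the S mice, and all mice were 10 months old.

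A cytosolic ribosome is built from ribosomal RNA and a single copy of nearly every ribosomal protein, in a large subunit that joins amino acids and a small subunit that reads the mRNA. The mRNAs of ribosomal proteins are among the most abundant of a cell, and most begin with a run of pyrimidines, the terminal oligopyrimidine (TOP) tract, through which mTOR signalling adjusts their translation together. Mammalian genomes also carry many processed pseudogenes of these genes, which are copies made from mature mRNA, and sequencing reads that match a gene and its copies equally well cannot be assigned to either.

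Each library held 15413385 to 23590149 reads assigned to genes. Of the uniquely placed reads, 7.82 to 15.1% lay outside annotated genes. Reads on Thy1, whose regulatory element drives the transgenes, were 517 to 625 CPM (the gene's reads scaled to a common library size) in the 8 WT mice and 1566 to 2141 CPM in the 8 3xTg mice, so the genotype labels were matched in 16 of 16 mice. None of 9 markers of hippocampal neurons was at 0, and their summed level was 8907 to 10758 CPM. The summed level of 10 choroid plexus markers was 765.5 CPM in WT-D mouse 4 and 307.7 CPM in WT-S mouse 1, and 34.9 to 69.8 CPM in the other 14 mice. Without WT-D mouse 4, the comparison of 3xTg-D with WT-D below has 4 members called in place of 5 (4.1% of all genes called), and leaving out either mouse called no member in WT-S vs WT-D.

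The 80 members held a small share of the library. Of all gene reads they made up 0.412 ± 0.0214% for WT-D, 0.435 ± 0.0702% for WT-S, 0.440 ± 0.0767% for 3xTg-D and 0.375 ± 0.0385% for 3xTg-S mice (mean ± SD, n = 4 each). The authors' aligner counted only reads with a single best position, and 11.7 to 15.4% of all reads per mouse were set aside as matching several positions, so a member with many close copies was counted from the part of its mRNA that is unique. To describe this, the main transcript of each member was cut into all its 75-base stretches, and those that also occur in another annotated gene were counted. The median member shared 51.6% of its stretches, 41 members shared over 50%, and Rps3 shared none.

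Per length of merged exons, the highest members were Rps15 (308 ± 52.1 RPKM, which is CPM per kilobase of exon), Rpl4 (249.9 ± 29.9 RPKM), Rplp1 (207 ± 45.8 RPKM), Rpl8 (142 ± 21.3 RPKM) and Rpl32 (125 ± 21.1 RPKM; mean ± SD, n = 16). The lowest were Rps10 (0.696 ± 0.167 RPKM), Rpl12 (1.26 ± 0.166 RPKM), Rpl11 (1.26 ± 0.220 RPKM), Rps6 (1.34 ± 0.286 RPKM) and Rpl27 (1.58 ± 0.168 RPKM). The spread between mice was far smaller than the distance between the highest and the lowest members, but neighbours such as Rpl11 and Rpl12 lay within it. Rps6, the small-subunit protein that is phosphorylated downstream of mTOR, shared 84.1% of its stretches with other genes and ranked 77 of 80. The median level was 59.9 RPKM for the 10 members that shared under 10% of their stretches, 16.4 RPKM for the 29 that shared 10 to 50%, 17.8 RPKM for the 23 that shared 50 to 75%, and 4.63 RPKM for the 18 that shared 75% or more. Across the 80 members, Spearman's rho between shared stretches and level was -0.52, a description over genes that all come from the same libraries. Levels of different members are therefore levels of uniquely assignable reads. The order also depended on the length used. By the length of the principal transcript in place of the merged exons, Rps15 (388 RPKM) and Rpl4 (326 RPKM) were again the highest, Rpl22 moved from rank 18 to rank 5 (39.3 and 241 RPKM), Rplp1 from rank 3 to rank 9, and Rps6 was the lowest (2.43 RPKM).

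**Figure D1:**
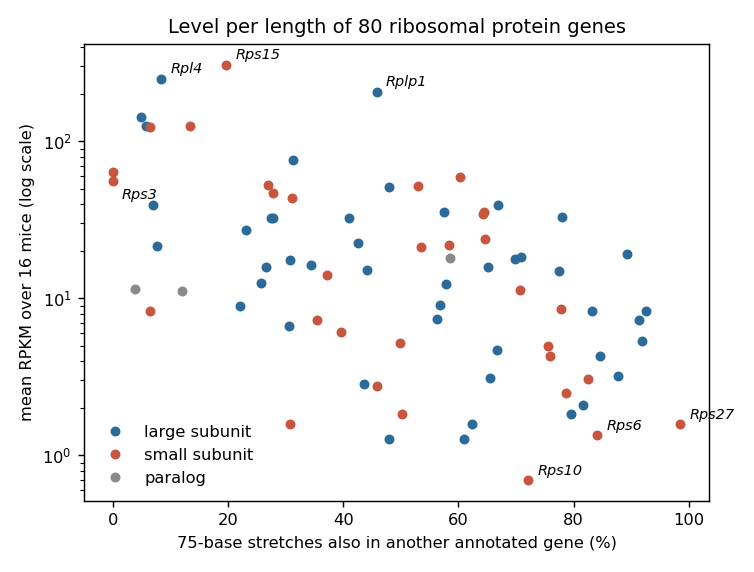
Mean level of each of the 80 members in RPKM over 16 mice (log scale) against the share of its 75-base stretches that also occur in another annotated gene, with large-subunit, small-subunit and paralog members in different colours. Rps3, with no shared stretch, lies at 56.2 RPKM, and Rps27, with 98.5% of its stretches shared, lies at 1.58 RPKM.

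Most members varied less than 2-fold among the 16 mice, and a few varied widely. The ratio of the highest to the lowest mouse had a median of 1.75 over the members, with quartiles of 1.57 and 1.96, and was above 2 for 19 of 80. It was smallest for Rpl5, at 1.34, whereas it was 103 for Rps3a1, 16.8 for Rpl34, 12.8 for Rpl3, 4.68 for Rpl29 and 4.45 for Rplp0. Rps3a1 is outside the rule for named genes and was chosen after its values were seen. These 5 members and Rpl15 are described first, since the genotype comparison turns on them. On GRCm38, Rpl34 lies at chr3:130726831-130730398 (minus strand), Rpl29 at chr9:106429454-106431568 (plus strand), Rplp0 at chr5:115559467-115563727 (plus strand), Rpl3 at chr15:80077791-80091868 (minus strand), Rps3a1 at chr3:86137940-86142702 (minus strand) and Rpl15 at chr14:18267823-18271391 (minus strand).

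The comparison of 3xTg-D with WT-D mice asks which members differ with genotype under vehicle alone. By edgeR's quasi-likelihood test, 5 of 80 members passed an unadjusted p of 0.01 (4 higher and 1 lower in 3xTg-D), which is 6.25% of members beside 4.91% of all 16475 genes tested (2.44% higher and 2.47% lower). The higher members were Rpl34, Rpl29, Rpl15 and Rpl3, and the lower one was Rplp0. After Benjamini-Hochberg adjustment over all genes, 3 members passed 0.05, Rpl34, Rpl29 and Rplp0, beside 1.85% of all genes. Without 3xTg-D mouse 4 the count of members called was 8, of which 7 were higher (10% of members beside 5.55% of all genes). Without each other mouse in turn it was 4 to 6, beside 3.95 to 4.97% of all genes.

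Rpl34, a protein of the large subunit, had 3.34, 3.65, 3.85 and 4.39 CPM among WT-D mice, against 32.3, 43.5, 33.1 and 25.1 CPM among 3xTg-D mice. In WT-S mice it was at 3.52, 2.59, 4.95 and 3.36 CPM, and in 3xTg-S mice at 31.3, 32.7, 27.7 and 28.5 CPM. All 8 3xTg mice lay above all 8 WT mice, whichever infusion they had received. The log2 fold change was 3.14 ± 0.17 (SE) in 3xTg-D vs WT-D (edgeR, adjusted p = 7.0e-06), 2.96 ± 0.10 in 3xTg-S vs WT-D (adjusted p = 7.4e-07) and 3.04 ± 0.16 in 3xTg-S vs WT-S (adjusted p = 4.5e-06). The interaction of genotype and treatment was -0.09 ± 0.25 on the log2 scale (edgeR, adjusted p = 0.927).

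Rpl29, a small basic protein of the large subunit, had 5.49, 5.0, 5.55 and 4.34 CPM among WT-D mice, against 17.0, 20.3, 13.5 and 12.6 CPM among 3xTg-D mice. WT-S mice had 4.41, 6.27, 7.98 and 4.4 CPM and 3xTg-S mice 11.8, 15.4, 14.4 and 13.7 CPM. Again no 3xTg mouse reached down to the WT range. The log2 fold change was 1.64 ± 0.16 in 3xTg-D vs WT-D (edgeR, adjusted p = 4.5e-04), 1.42 ± 0.12 in 3xTg-S vs WT-D (adjusted p = 1.5e-04) and 1.25 ± 0.19 in 3xTg-S vs WT-S (adjusted p = 0.0085).

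Rplp0, the base of the stalk on which elongation factors dock, went the other way. WT-D mice had 98.3, 84.4, 60.5 and 76.3 CPM, against 34.1, 42.0, 32.3 and 30.0 CPM among 3xTg-D mice. WT-S mice had 82.1, 102, 64.5 and 48.2 CPM, against 24.9, 32.9, 27.2 and 23 CPM among 3xTg-S mice. All 8 3xTg mice lay below all 8 WT mice, and the log2 fold change was -1.20 ± 0.15 in 3xTg-D vs WT-D (edgeR, adjusted p = 0.0018), -1.58 ± 0.16 in 3xTg-S vs WT-D (adjusted p = 3.9e-04) and -1.48 ± 0.21 in 3xTg-S vs WT-S (adjusted p = 0.0059). Rplp0 is often chosen as a reference gene for quantitative PCR, and in these counts it separated the genotypes.

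Rpl15, a core protein of the large subunit, had 94.5, 87.9, 89.9 and 80.4 CPM among WT-D mice, against 105, 117, 113 and 97.7 CPM among 3xTg-D mice, a log2 fold change of 0.30 ± 0.07 (edgeR, adjusted p = 0.078). Among the WT-S mice a pair stood at 112 and 117 CPM and the other pair at 77.0 and 77.7 CPM. Rpl15 was not called in 3xTg-S vs WT-D or 3xTg-S vs WT-S. Rpl3, a protein near the site of peptide bond formation, had 3.97, 20.7, 20.9 and 18.1 CPM among WT-D mice, against 40.4, 40.4, 35.8 and 36.0 CPM among 3xTg-D mice, a log2 fold change of 1.27 ± 0.36 (edgeR, adjusted p = 0.138). In WT-S mice it was at 3.38, 3.16, 21.5 and 33.3 CPM and in 3xTg-S mice at 39.4, 38.4, 32.2 and 31.5 CPM. The WT mice thus fell at 3 levels, at 3.16 to 3.97, at 18.1 to 21.5 and at 33.3 CPM, and mouse 4 of WT-S overlapped the 3xTg-S range. The call of Rpl3 in 3xTg-D vs WT-D was lost without WT-D mouse 4 (edgeR, adjusted p = 0.245), 3xTg-D mouse 1 (adjusted p = 0.285) or 3xTg-D mouse 3 (adjusted p = 0.271). In 3xTg-S vs WT-D its log2 fold change was 1.14 ± 0.37 and missed the threshold (adjusted p = 0.186), which it passed without WT-D mouse 1 (0.82, edgeR, adjusted p = 0.0055).

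Rps3a1, a protein of the small subunit, showed the widest range of all 80 members and was not called. WT-D mice had 42.0, 87.7, 39.9 and 1.12 CPM, and WT-S mice 41.7, 42.7, 46.3 and 0.977 CPM. 3xTg-D mice had 78.7, 101, 81.1 and 69.1 CPM, and 3xTg-S mice 81.7, 81.6, 67.3 and 62.1 CPM. WT mice again stood at separate levels while the 3xTg mice formed a single range. The log2 fold change in 3xTg-D vs WT-D was 0.95 ± 0.66 (edgeR, adjusted p = 0.600).

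**Figure D2:**
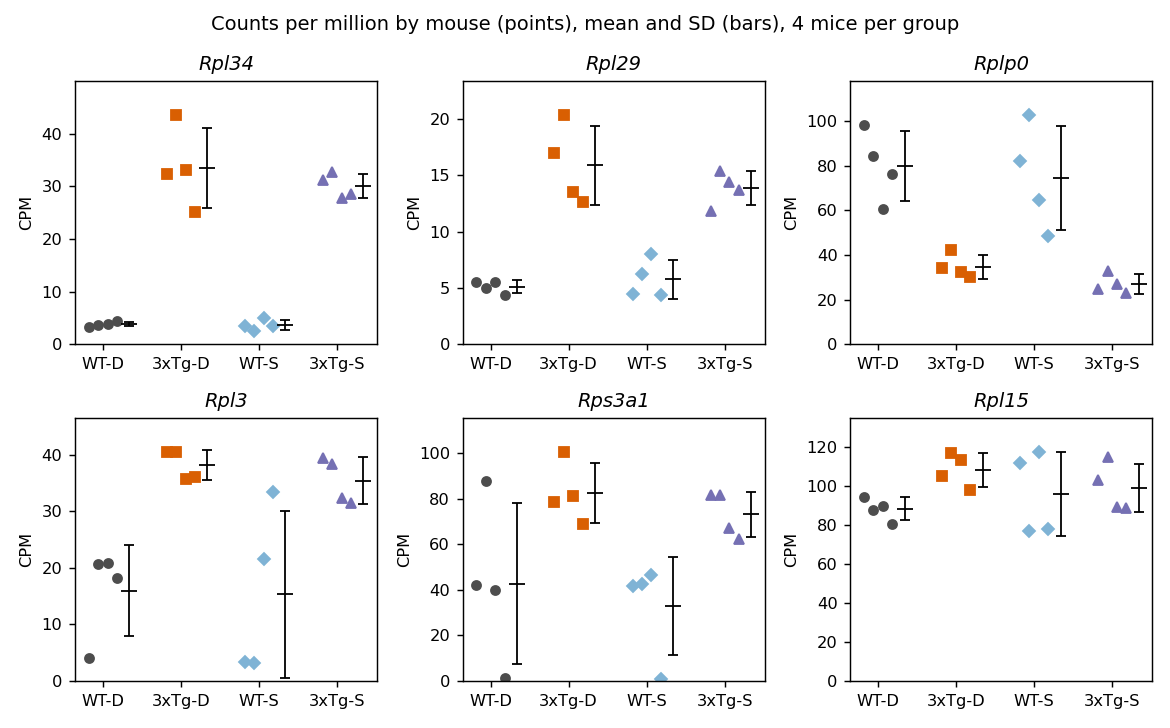
Level in CPM of Rpl34, Rpl29, Rplp0, Rpl3, Rps3a1 and Rpl15 in each of 16 mice (points), with mean and SD of the 4 mice of a group (bars). Rpl34, Rpl29 and Rplp0 separate all 3xTg from all WT mice, and Rpl3 and Rps3a1 fall at several levels among the WT mice.

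Because Rps3a1, Rpl3 and Rplp0 have close copies elsewhere in the genome, the reads on each copy were set beside those on the gene. Sums of a gene and its copies hold only uniquely placed reads, and reads that matched both equally well are missing from them. The sums therefore cannot show whether a difference would remain with those reads assigned. The copies named from here on were chosen after their values were seen. A stretch of coding sequence of each gene and the matching stretch of its copy are given below, from the GRCm38 reference with Gencode M21 transcripts, with the bases that differ in capitals. They show how little separates a read of the gene from a read of the copy.
Rps3a1, chr3:86141333-86141392, minus strand: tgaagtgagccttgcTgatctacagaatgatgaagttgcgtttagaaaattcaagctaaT
Rps3a3, chr13:108670803-108670862, plus strand: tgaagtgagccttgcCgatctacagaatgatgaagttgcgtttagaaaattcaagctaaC
Rpl3, chr15:80082523-80082582, minus strand: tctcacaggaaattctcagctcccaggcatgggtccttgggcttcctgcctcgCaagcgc
Rpl3-ps1, chrX:13202575-13202634, plus strand: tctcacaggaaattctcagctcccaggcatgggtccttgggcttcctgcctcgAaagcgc
Rplp0, chr5:115561168-115561227, plus strand: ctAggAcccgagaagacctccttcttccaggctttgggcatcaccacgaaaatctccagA
Gm8730, chr8:102865352-102865411, minus strand: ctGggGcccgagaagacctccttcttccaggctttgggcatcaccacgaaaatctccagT

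Aligned over their shared length, Rps3a1 and the processed pseudogene Rps3a3 differed at 9 of 795 bases (98.9% identity), and their longest identical run was 215 bases. Rpl3 and Rpl3-ps1 differed at 2 of 1210 bases (99.8%) with an identical run of 728 bases, and Rplp0 and Gm8730 at 12 of 954 bases (98.7%) with a run of 170 bases. Rpl29 and its copy Gm8210 differed at 3 of 483 bases (99.4%), whereas Rpl34 and its copy Gm10086 differed at 8 of 354 bases (97.7%) with no identical run above 77 bases.

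The reads of Rps3a3 mirrored those of Rps3a1 mouse by mouse. In WT-D mice Rps3a3 was at 31.2, 0.0961, 29.8 and 50.9 CPM and in WT-S mice at 31.2, 34, 34.6 and 47.0 CPM, whereas in the 8 3xTg mice it was at 0 to 0.265 CPM. WT-D mouse 2, the WT mouse with almost no Rps3a3 reads, had the highest Rps3a1 level among WT mice, and both WT mice with the highest Rps3a3 levels had the lowest Rps3a1 levels. The sum of Rps3a1 and its 7 annotated copies was 71.5 ± 14.8 CPM for WT-D, 70.4 ± 14.9 CPM for WT-S, 83.3 ± 13.5 CPM for 3xTg-D and 74.0 ± 10.05 CPM for 3xTg-S mice (SD, n = 4). Over all 16 mice the sum varied 2.10-fold, where Rps3a1 alone varied 103-fold. The log2 fold change of the sum in 3xTg-D vs WT-D was 0.22 ± 0.15 (edgeR, adjusted p = 0.593).

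Rpl3-ps1 on chromosome X was at 22.7, 14.1, 12.7 and 11.7 CPM in WT-D mice, 24.7, 29.4, 13.5 and 0.488 CPM in WT-S mice, and 0.385 to 0.763 CPM in the 8 3xTg mice. The 3 WT mice lowest in Rpl3 had the highest Rpl3-ps1 levels, and WT-S mouse 4, at the Rpl3 level of 3xTg mice, also had their Rpl3-ps1 level. Rpl3 and its 8 copies summed to 31.6 ± 3.71 CPM for WT-D, 32.9 ± 3.04 CPM for WT-S, 39.3 ± 3.0 CPM for 3xTg-D and 36.5 ± 4.43 CPM for 3xTg-S mice. The sum varied 1.56-fold over all mice. It was still called higher in 3xTg-D vs WT-D, by 0.32 ± 0.09 on the log2 scale (edgeR, adjusted p = 0.127) in place of 1.27 for Rpl3 alone, and was not called in 3xTg-S vs WT-S (0.13 ± 0.11, adjusted p = 0.702).

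For Rplp0 the copies were higher where the gene was lower. Gm8730 was at 11.2 to 15.6 CPM in 3xTg-D and 9.74 to 11.2 CPM in 3xTg-S mice. It was at 6.81 CPM in WT-D mouse 3, 6.56 CPM in WT-S mouse 3 and 4.18 CPM in WT-S mouse 4, and at 0.104 CPM or less in the other 5 WT mice. A second copy, Gm9625 on chromosome 13, had 1.73 to 3.61 CPM in 3xTg mice, and in WT mice 1.47 to 1.80 CPM in the same 3 mice and 0.306 to 0.563 CPM in the other 5. With its 5 copies added, Rplp0 was still lower in 3xTg mice in the uniquely placed reads. The sum was 82.6 ± 12.5 CPM for WT-D against 51.7 ± 8.02 CPM for 3xTg-D, a log2 fold change of -0.67 ± 0.13 (edgeR, adjusted p = 0.026). It was -1.04 ± 0.12 in 3xTg-S vs WT-D (adjusted p = 0.0017) and -0.97 ± 0.17 in 3xTg-S vs WT-S (adjusted p = 0.021).

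**Figure D3:**
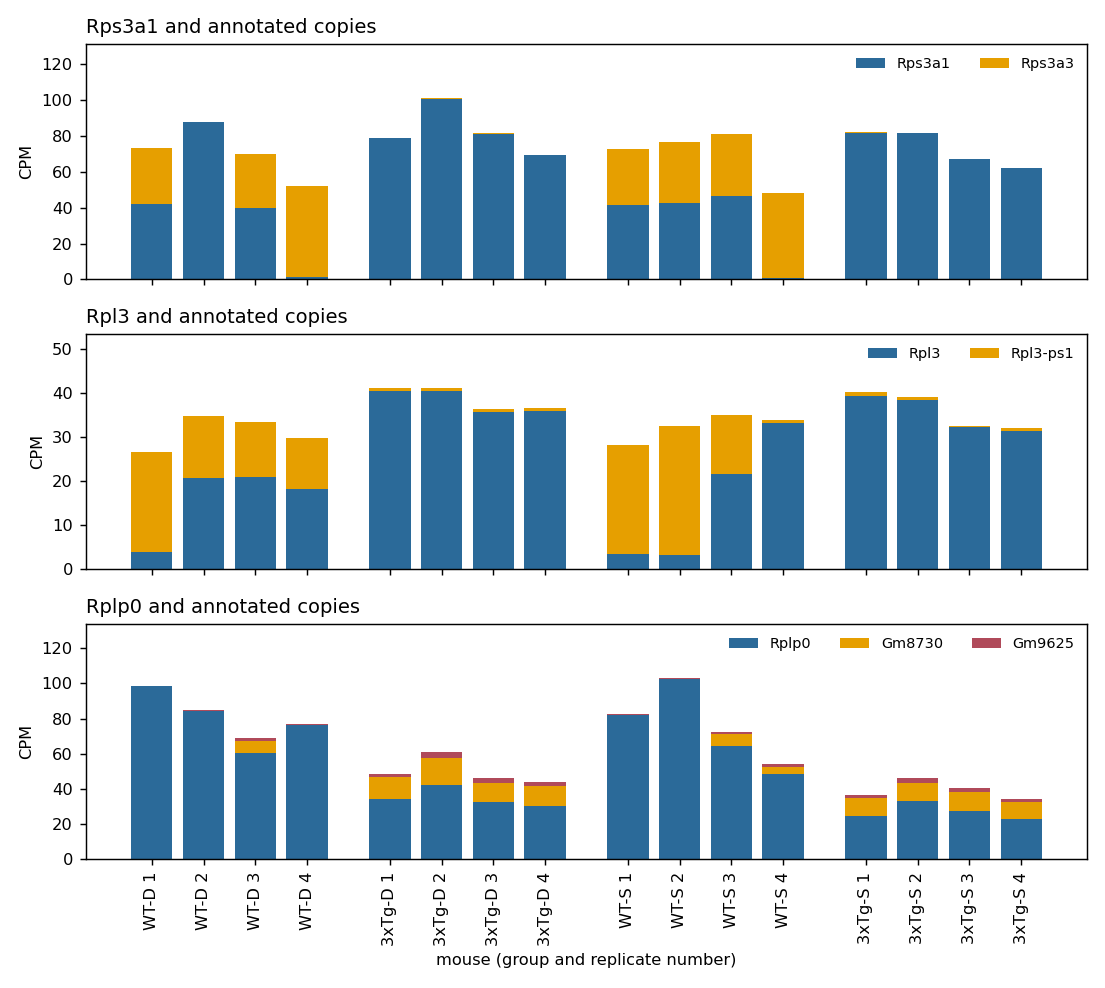
Level in CPM, as stacked bars, of Rps3a1, Rpl3 and Rplp0 and of their annotated copies Rps3a3, Rpl3-ps1, Gm8730 and Gm9625 in each of 16 mice. Stacked with their copies, Rps3a1 and Rpl3 vary far less between mice than the gene alone, and Rplp0 stays lower in the 3xTg mice.

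In the uniquely placed reads, Rpl34 and Rpl29 also kept their differences when copies were added. The raw counts on Gm10086 were 1 to 11 in every mouse, and Rpl34 with its 8 copies differed by 3.02 ± 0.17 on the log2 scale in 3xTg-D vs WT-D (edgeR, adjusted p = 8.0e-06). Gm8210 had 7 to 30 raw counts in WT mice and 0 or 1 in 3xTg mice. Rpl29 with its 42 copies was at 5.59 to 10.3 CPM in WT and 13.1 to 21.5 CPM in 3xTg mice, and differed by 1.25 ± 0.15 on the log2 scale in 3xTg-D vs WT-D (edgeR, adjusted p = 0.0015). Rpl15 with its 17 copies differed by 0.33 ± 0.08 (adjusted p = 0.072).

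Adding copies also brought a call that the gene alone did not have. Rps13, a small-subunit protein, had 6.51 to 7.27 CPM among WT-D mice, against 6.48 to 7.14 CPM among 3xTg-D mice. Its copy Rps13-ps1 on chromosome 8 was at 2.5 to 4.46 CPM in the 8 WT mice and at 0 to 0.109 CPM in the 8 3xTg mice. Together with its 5 copies Rps13 differed by -0.49 ± 0.09 on the log2 scale in 3xTg-D vs WT-D (edgeR, adjusted p = 0.019). Over all members, the count called in 3xTg-D vs WT-D was 6 with copies added, beside 4.89% of all genes, and 5 without. Of the 35 copies with a mean of at least 10 counts, 1 was called higher and 3 lower in 3xTg-D vs WT-D, beside 2.44% and 2.47% of all genes. The higher one was Gm9625 and the lower ones Rps3a3, Rpl3-ps1 and Rps13-ps1. None of the 35 was called in 3xTg-S vs 3xTg-D or WT-S vs WT-D by edgeR's test. Whether strain differences in sequence, the placement of reads or expression itself lies behind these patterns was not tested.

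The other comparisons across genotype set 3xTg-S mice against both WT groups. Rpl34 and Rpl29 were called higher and Rplp0 lower in 3xTg-S vs WT-D, so that 3 of 80 members were called, 3.75% beside 5.69% of all genes (2.26% higher and 3.43% lower). The same 3 were called in the same directions in 3xTg-S vs WT-S, beside 4.26% of all genes (1.79% higher and 2.47% lower). All 3 passed an adjusted p of 0.05 in both, beside 1.58% and 1.4% of all genes. Over all members the median log2 fold change was -0.14 in 3xTg-S vs WT-D, with 68 of 80 below 0 beside 51.2% of all genes, and -0.23 in 3xTg-S vs WT-S, with 70 of 80 below 0 beside 49.6%. 3xTg-S vs WT-D shares the WT-D mice with 3xTg-D vs WT-D and the 3xTg-S mice with 3xTg-S vs WT-S. It is therefore not independent of either. 3xTg-S vs WT-S and 3xTg-D vs WT-D have no mouse in common. Without 3xTg-S mouse 2, 17 members were called in 3xTg-S vs WT-D (15 lower), which is 21.2% of members beside 9.38% of all genes, and 11 in 3xTg-S vs WT-S (9 lower), 13.8% beside 6.03%. Without WT-D mouse 1 the count in 3xTg-S vs WT-D was 5, 6.25% of members beside 4.07% of all genes. Without WT-S mouse 4 it was 23 in 3xTg-S vs WT-S (19 lower), 28.8% beside 5.75%. Groups did not overlap for 4 members higher and 3 lower in 3xTg-D vs WT-D (Rpl10a, Rpl27 and Rplp0 were the lower ones), beside 4.39% and 3.78% of all genes. In 3xTg-S vs WT-D they did not overlap for Rpl29, Rpl3 and Rpl34, all higher, and for Rplp0, lower, beside 5.13% and 4.42% of all genes. In 3xTg-S vs WT-S they did not overlap for Rpl29, Rpl34 and Rps3a1, all higher, and for Rpl36a and Rplp0, lower, beside 3.22% and 3.53% of all genes. Of the members named in the text, Rpl10a, Rpl5 and Rps3 fall outside the rule for named genes as well and were chosen after their values were seen.

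The comparisons of S with D mice ask how the members differ with CAY10566 within a genotype. No member was called in either genotype, at an unadjusted p of 0.01 or an adjusted p of 0.05. In 3xTg-S vs 3xTg-D, 149 of 16475 genes were called (0.904%, of which 0.625% lower), and in WT-S vs WT-D 31 (0.188%, of which 0.0789% higher). No member separated the S from the D mice of a genotype without overlap, beside 1.4% of all genes higher and 1.76% lower in 3xTg mice and 0.765% and 0.716% in WT mice. At an unadjusted p under 0.05, 1 member passed in 3xTg mice and 0 in WT mice by edgeR, and DESeq2's likelihood ratio test called 0 at 0.01 in both. Without 3xTg-D mouse 4, 4 members (5%) were called lower in 3xTg mice, beside 0.862% of all genes called lower and 1.65% called in either direction. Without 3xTg-S mouse 2 it was also 4, beside 1.41% of all genes lower and 4.87% in either direction. Without WT-S mouse 4, 6 members were called higher in WT mice (7.5%), beside 0.777% of all genes higher and 3.13% in either direction.

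The members nonetheless leaned the same way within each genotype, in opposite directions. In 3xTg-S vs 3xTg-D, 73 of 80 log2 fold changes were below 0, beside 48.1% of all genes, with a median of -0.20 and quartiles of -0.25 and -0.13. In WT-S vs WT-D, 66 of 80 were above 0 and 14 below, beside 50.1% of all genes below, with a median of 0.11 and quartiles of 0.04 and 0.14. These counts are a description, since members rise and fall together within a mouse. The lean held without the 5 members described above: 68 of 75 were below 0 in 3xTg mice and 65 of 75 above 0 in WT mice. The interaction of genotype and treatment called 0 of 80 members beside 0.595% of all genes (0.291% lower). Its median over members was -0.28, with 74 of 80 below 0 beside 48.1% of all genes, and 5 members had an unadjusted p under 0.05. Leaving out 3xTg-D mouse 4, WT-S mouse 4 or 3xTg-S mouse 2 gave 5, 4 or 3 members called lower in the interaction, beside 0.71, 1.19 and 1.45% of all genes called lower and 1.34, 2.31 and 2.96% called in either direction. In these bulk samples, fewer cells of a type and less RNA per cell cannot be told apart.

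The members with the smallest p in 3xTg-S vs 3xTg-D were Rplp0, Rps16 and Rps25. Rplp0 was lower by -0.36 ± 0.13 on the log2 scale (edgeR, adjusted p = 0.722). Rps16, a small-subunit protein near the decoding site, had 8.79, 10.7, 9.98 and 9.38 CPM among 3xTg-D mice, against 7.46, 9.83, 7.71 and 7.13 CPM among 3xTg-S mice (-0.27 ± 0.13). Rps25, a protein of the small subunit's head, had 93.2, 121, 102 and 79.3 CPM among 3xTg-D mice, against 77.3, 98.0, 79.6 and 69.1 CPM among 3xTg-S mice (-0.29 ± 0.14). The groups overlapped for both, and both had an adjusted p of 0.722 as well. Without 3xTg-S mouse 2, Rplp0 and Rps16 passed the unadjusted threshold (edgeR, adjusted p = 0.204 for each). In WT-S vs WT-D the smallest p belonged to Rps29 (0.52 ± 0.27), Rps2 (0.18 ± 0.11) and Fau (0.23 ± 0.14), which is made as a fusion with a ubiquitin-like protein. Fau had 4.94, 4.32, 4.75 and 4.60 CPM among WT-D mice, against 5.40, 5.54, 6.42 and 4.45 CPM among WT-S mice. In the interaction it belonged to Rps27 (-0.73 ± 0.30), Rplp2 (-0.36 ± 0.16) and Fau (-0.53 ± 0.24). Rps27, a zinc-finger protein of the small subunit, had 1.03 to 1.67 CPM among 3xTg-S mice, against 1.47 to 2.39 CPM among 3xTg-D, 1.17 to 1.95 CPM among WT-D and 1.57 to 2.11 CPM among WT-S mice. In the main fits by edgeR, no member had an adjusted p under 0.722 in these 3 contrasts.

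**Figure D4:**
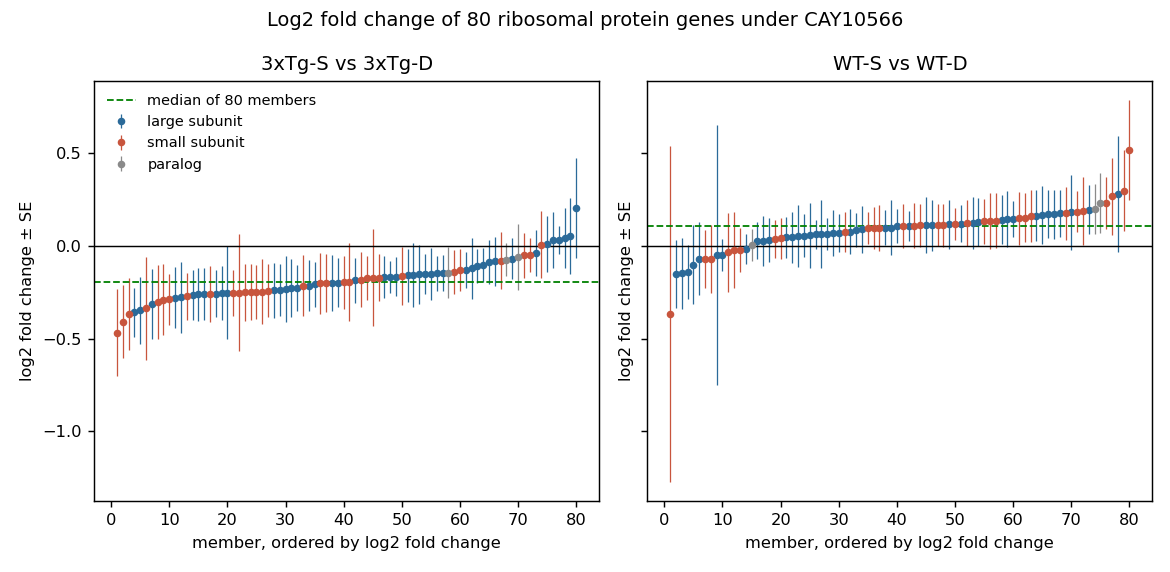
Log2 fold change with its SE for each of 80 members, ordered from lowest to highest, in 3xTg-S vs 3xTg-D and WT-S vs WT-D, with the median of the 80 members as a dashed line. The median lies at -0.20 in 3xTg and 0.11 in WT mice, and 73 and 14 members lie below 0.

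A measure of the libraries moved with the members, and its part in the lean was not tested beyond the covariate below. The share of uniquely placed reads outside annotated genes was 10.5 to 12.5% for WT-D, 8.55 to 13.1% for WT-S, 8.79 to 11.3% for 3xTg-D and 7.82 to 15.1% for 3xTg-S mice. The 3 mice highest in member share, 3xTg-D mouse 2 (0.546%), WT-S mouse 3 (0.497%) and WT-S mouse 2 (0.474%), had 8.79, 9.93 and 8.55% of reads outside genes. The 2 mice lowest in member share, 3xTg-S mouse 4 (0.331%) and WT-S mouse 4 (0.338%), had the 2 highest shares outside genes, 15.1 and 13.1%. 3xTg-S mouse 2, with the lowest share outside genes, did not follow this order and had a member share of 0.419%. With the outside share as a covariate, the median over members was -0.09 in 3xTg-S vs 3xTg-D (69 of 80 below 0), 0.00 in WT-S vs WT-D (40 of 80 below 0) and -0.10 in the interaction (67 of 80 below 0). In 3xTg-D vs WT-D the same covariate turned the median from 0.08 (18 of 80 below 0) to -0.06 (65 of 80 below 0), so the direction of the family between these groups depended on the covariate. In 3xTg-S vs WT-D, 7 members were called with the covariate (8.75%) in place of 3, beside 8.37% of all genes in place of 5.69%.

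**Figure D5:**
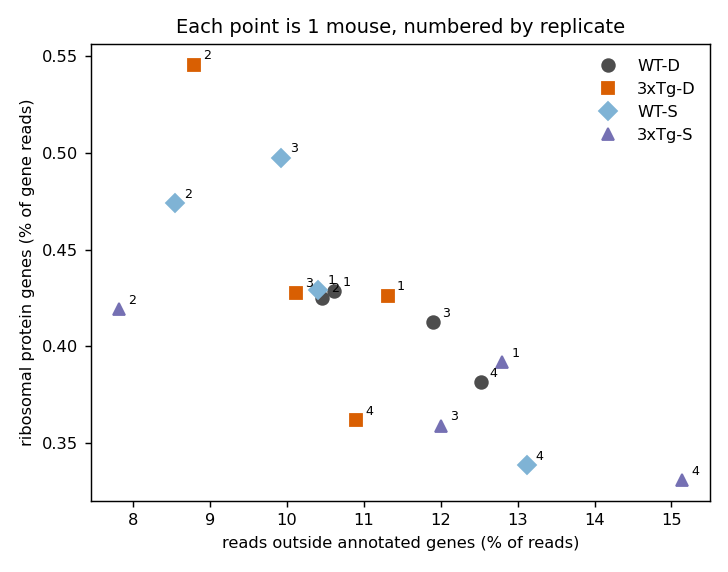
Share of gene reads on the 80 members in percent against the share of reads outside annotated genes in percent, for each of 16 mice, with symbols for the 4 groups and replicate numbers. The mouse at 15.1% outside genes has the lowest member share, 0.331%, and the mouse at 8.79% has the highest, 0.546%.

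Markers of several cell types also differed in 3xTg-S vs 3xTg-D, with summed levels given for 3xTg-D and then 3xTg-S mice. Over all genes, 0.279% were called higher and 0.625% lower in 3xTg-S vs 3xTg-D. Of 9 markers of mature oligodendrocytes, 9 were below 0 and 3 were called lower, with 5811 to 6905 and 4432 to 6921 CPM. All 10 microglial and 7 astrocytic markers were below 0 with none called (466.8 to 888 and 379 to 565.7 CPM for microglia, 5519 to 7397 and 5428 to 6354 CPM for astrocytes). Of 5 ependymal markers 3 were called lower (16 to 24.2 and 10.4 to 12.1 CPM), and 5 of 5 erythroid markers were above 0 with none called (30.5 to 75.5 and 31.3 to 126.5 CPM). Markers of other cells went the other way, with 7 of 9 for hippocampal neurons and 6 of 6 for endothelium above 0 and none called. In 3xTg-D vs WT-D, 3 of the 9 oligodendrocyte markers were called higher, each also at an adjusted p of 0.05 (edgeR), with 7 of 9 above 0 and 4514 to 5339 CPM in WT-D mice. Over all genes, 2.44% were called higher and 1.85% passed the adjusted threshold in 3xTg-D vs WT-D. In that comparison 7 of 7 astrocytic and 8 of 10 microglial markers were above 0, 6 of 6 endothelial ones below 0, and none of these was called. No marker of these lists was at 0 in all mice, and their part in the genotype differences and in the lean of the ribosomal protein genes was not tested.

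Both subunits leaned in these directions. In 3xTg-S vs 3xTg-D the median was -0.17 for the 45 large-subunit members (39 below 0) and -0.23 for the 32 small-subunit members (31 below 0). In WT-S vs WT-D it was 0.08 (37 above 0) and 0.11 (26 above 0). All 5 members called in 3xTg-D vs WT-D were among the 45 of the large subunit, beside 4.91% of all genes called. In the main fits none of the 32 small-subunit members was called in any of the 5 comparisons, beside 0.188 to 5.69% of all genes. With copies added, Rps13 of the small subunit was called in 3xTg-D vs WT-D. Whether the subunits differed was not tested. Large-subunit reads were 0.228 ± 0.0102% of gene reads for WT-D, 0.240 ± 0.0349% for WT-S, 0.242 ± 0.0368% for 3xTg-D and 0.209 ± 0.0195% for 3xTg-S mice (SD, n = 4). In the same order, small-subunit reads were 0.183 ± 0.0115%, 0.195 ± 0.0353%, 0.198 ± 0.0399% and 0.167 ± 0.0191%.

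The stalk of the large subunit consists of Rplp0, Rplp1 and Rplp2. While Rplp0 was called lower in 3xTg-D vs WT-D, its partners Rplp1 and Rplp2, which dimerise on it, had log2 fold changes of 0.32 ± 0.16 (edgeR, adjusted p = 0.430) and 0.15 ± 0.11 (adjusted p = 0.621). Rplp1 passed the unadjusted threshold without 3xTg-D mouse 4 (0.44, edgeR, adjusted p = 0.135). Whether Rplp0 differed from its partners was not tested. Rplp1 had 93.7, 99.2, 101 and 84.4 CPM among WT-D mice, against 112, 159, 115 and 85.3 CPM among 3xTg-D mice, and Rplp2 had 50.6 to 57.7 and 51.4 to 76.5 CPM. Both overlapped between the groups. A copy of Rplp1, Gm11942 on chromosome 4, was at 16.5 to 37.4 CPM in 3xTg-D and 15.3 to 24.9 CPM in 3xTg-S mice. It was at 11.1, 13.2 and 16.3 CPM in 3 WT mice and at 0.326 to 0.919 CPM in the other 5.

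Of the paralogs, 3 passed the count minimum. Rpl22l1, a paralog of Rpl22, had 34.1 ± 2.99 CPM among WT-D and 37.1 ± 6.96 CPM among 3xTg-D mice. Per length, Rpl22 itself had 39.3 ± 4.29 RPKM and Rpl22l1 18.1 ± 2.86 RPKM over the 16 mice. Rps27l, a p53-responsive paralog of Rps27, had 11.2 ± 2.04 RPKM and Rps27 1.58 ± 0.362 RPKM. This order of paralog over parent stands beside shared stretches of 12% for Rps27l and 98.5% for Rps27, and so is an order of assignable reads. Rpl7 had 32.6 ± 4.20 RPKM and Rpl7l1, which acts in ribosome assembly, 11.5 ± 0.935 RPKM. None of the 3 paralogs was called in any comparison or in the interaction. Rpl10l was not detected, and Rpl3l, Rpl36al and Rpl39l were under the count minimum.

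Among members that are commonly used as references or named for other roles, Rpsa, also the laminin receptor, was at 6.11 ± 1.01 RPKM, Rpl13a at 7.42 ± 1.10 RPKM, Rps4x at 52.2 ± 6.10 RPKM and Rpl41, the shortest of the family, at 76.6 ± 13.3 RPKM over 16 mice. Rpl10, a late-joining protein of the large subunit, had 5.36 ± 0.560 RPKM, Rpl36a 4.28 ± 0.542 RPKM and Rpl39, at the exit tunnel, 21.6 ± 3.57 RPKM. Rps27a, a fusion with ubiquitin, had 11.3 ± 1.58 RPKM. None of the members in this paragraph was called in any comparison. Outside the family, the genes whose level over the 16 mice most resembled the members' mean log2 CPM were Gstm5 (Pearson's r = 0.978), Naca (r = 0.963), which guides nascent chains at the ribosome, and Pfdn5 (r = 0.955), a prefoldin subunit. The median member itself had r = 0.843 with that mean.

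Other gene lists of translation and of energy metabolism were set beside the cytosolic ribosomal proteins. Over all genes, 4.91% were called in 3xTg-D vs WT-D (2.44% higher and 2.47% lower), and 1.85% passed an adjusted p of 0.05. The shares called were 0.904% in 3xTg-S vs 3xTg-D and 0.188% in WT-S vs WT-D. No list was tested against these shares. Of 77 mitochondrial ribosomal protein genes tested, 2 were higher and 1, Mrpl33, lower in 3xTg-D vs WT-D. Both higher ones passed an adjusted p of 0.05: Mrpl48 was higher by 0.61 ± 0.05 on the log2 scale (edgeR, adjusted p = 1.3e-04) and Mrpl3 by 0.28 ± 0.05 (adjusted p = 0.017). Their median was -0.07 in 3xTg-S vs 3xTg-D (64 of 77 below 0) and 0.05 in WT-S vs WT-D (65 of 77 above 0), with none called. The 13 elongation factors and other TOP mRNAs had no call in any comparison, a median of -0.13 in 3xTg-S vs 3xTg-D (12 of 13 below 0) and 0.07 in WT-S vs WT-D (11 of 13 above 0). Of 51 initiation factors, 1 was called in 3xTg-D vs WT-D, Eif4b, at -0.71 ± 0.19 (edgeR, adjusted p = 0.123). The 34 ribosome assembly genes had 1 call in 3xTg-D vs WT-D, Polr1b, a subunit of RNA polymerase I, at -0.43 ± 0.13 (adjusted p = 0.172), and a median of -0.03 in 3xTg-S vs 3xTg-D, where 20 of 34 were below 0. Of 25 genes of the mTOR pathway and TOP mRNA regulation, Lamtor3, a part of the lysosomal scaffold of mTOR, was higher in 3xTg-D by 0.34 ± 0.06 (edgeR, adjusted p = 0.013). Their median was 0.01 in 3xTg-S vs 3xTg-D. Of 17 snoRNA host genes, Gas5 and Snhg20 were lower in 3xTg-D vs WT-D, Gas5, itself a TOP RNA, by -0.29 ± 0.06 (edgeR, adjusted p = 0.053). The 79 nuclear subunits of oxidative phosphorylation, which lie outside translation, had a median of -0.10 in 3xTg-S vs 3xTg-D (73 of 79 below 0) and 0.08 in WT-S vs WT-D (72 of 79 above 0), a lean of the same direction and with none called. In 3xTg-D vs WT-D, 2 of them were called lower, Cox7c by -0.95 ± 0.15 (edgeR, adjusted p = 0.0083) and Cox6a2 by -1.01 ± 0.19 (adjusted p = 0.027). Of 17 named ribosomal protein pseudogenes tested, 2 passed an adjusted p of 0.05 in 3xTg-D vs WT-D, both lower, Rpl3-ps1 and Rps13-ps1. Rplp0-ps1 was called higher at an unadjusted p of 0.01 only, and it and Mrpl33 are named for these counts, after their values were seen.

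A run of pyrimidines at the transcription start, which the names did not select, was found in part of the members. RefSeq start sites on GRCm38.p6 were available for 60 of the 80. On the gene's own strand, the base at the start was a C, directly followed by at least 4 further C or T in 14 of 60 members (23.3%), beside 813 of 27025 genes with a start site (3.01%). With the start allowed to shift by up to 5 bases it was 30 of 60 (50%), beside 5718 of 27025 (21.2%). No other strand was searched. Examples follow, each from 15 bases before the annotated start to 15 after, with the tract in capitals. Fau and Rps27 are among the members with the smallest p in the treatment comparisons, Rpl15 was called by genotype, Rps6 is the mTOR-linked member, and Rplp2 has the shortest of these tracts.
Fau, chr19:6057932-6057961, plus strand: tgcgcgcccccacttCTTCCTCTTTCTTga
Rpl15, chr14:18270972-18271001, minus strand: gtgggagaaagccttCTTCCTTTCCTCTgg
Rps27, chr3:90213634-90213663, minus strand: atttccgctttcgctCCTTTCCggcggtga
Rps6, chr4:86857353-86857382, minus strand: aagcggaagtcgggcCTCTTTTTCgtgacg
Rplp2, chr7:141447636-141447665, plus strand: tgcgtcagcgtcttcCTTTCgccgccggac

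The tract runs 13 bases in Fau and Rpl15, 9 in Rps6, 7 in Rps27 and 5 in Rplp2. Rpl34 had its nearest tract 1 base after one annotated start and 2 bases before another. A match describes these letters only, and a start annotated a few bases away from the true one would hide a tract.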

How the data were processed

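Per the labels, hippocampal RNA of 16 mice was sequenced, and the treatment labels name the Cayman inhibitor. The common protocol text gives the code ab142089 instead. The authors trimmed reads with Trimmomatic 0.35, aligned them with STAR 2.5.1b to GRCm38 and deposited the raw counts of each gene, which are not normalized. The strand setting and any removal of duplicate reads are not given in the sources used here, so members that overlap an antisense gene are uncertain. Reads per mouse on genes numbered 15413385 to 23590149, which limits members of few counts most. All columns were used, and 4 summary lines were kept out of library sizes.

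Counts were analysed in R 4.3.3 with edgeR 4.0.16: filterByExpr (minimum count 10, minimum total 15) left 16475 genes, libraries were scaled by TMM, and groups were compared pairwise by the quasi-likelihood test (two-sided), with calls at p of 0.01 or less as in the study and Benjamini-Hochberg adjustment over all genes. Log2 fold changes are the first group minus the second, CPM are TMM-scaled, and RPKM used merged exons of Gencode M21. Nothing says that the mice were littermates or technical repeats; p-values measure the spread between these 4 mice per group. Replicate libraries differed beyond counting noise (chi-square over its degrees of freedom, 3.92 to 47.6). Replicate numbers 1 to 4 come from the sample titles. Deviations of same-numbered mice from their group means correlated at 0.114 to 0.340 across genes in WT-S and WT-D, over 0.1 in every pair, and not so in the other comparisons.

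Members and gene lists were chosen with earlier results of these data known. Named genes were those with p of 0.01 or less in a comparison (up to 8 per direction, otherwise the 3 smallest p), a fixed set of stalk, paralog and reference genes, the 5 highest and 5 lowest by RPKM, the 3 outside genes most alike, and the 2 smallest p of each other list. Copies are annotated pseudogenes that share a 75-base stretch with a member, 688 in all, each added to the member with which it shares most. Alternatives were RLE factors, DESeq2 1.42.0, no filter, all 16 mice in one fit, TMM without members, the outside-gene share as covariate, the replicate block, copies added (chosen after seeing the data) and each mouse left out. Several of these fits were also run on simulated counts, for 3xTg-D vs WT-D and the interaction only. The counts were drawn independently for each mouse, with no effect of the outside-gene share, no correlation by replicate number and no misplaced reads. Their outcome is not given here, so they lend no weight to the calls. Some items are not reported here.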

Additional observations from a re-analysis of the deposited data

Results flagged for a closer look

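Among 164 sets of 4 mice, 1 per group and gene or measure that the text reports, 8 held a mouse far from the other 3, and chance alone gives about 1 in 20. Rpl3 was at 3.97 CPM in WT-D mouse 1 and at 18.1 to 20.9 CPM in the other WT-D mice. Rps3a1 was at 0.977 CPM in WT-S mouse 4 and at 41.7 to 46.3 CPM in the others. The copy Gm8730 was at 6.81 CPM in WT-D mouse 3 and at 0.0480 to 0.0845 CPM in the others. These 3 belong to the genes whose reads were mirrored by a copy. Smaller gaps were found for Rpl22l1 in WT-D (29.6 CPM in mouse 4, 35.1 to 36.2 CPM in the others) and Rpl4 in WT-D (467 CPM in mouse 4, 516 to 524 CPM in the others). In 3xTg-S, mouse 2 stood high for Rpl7l1 (43.6 CPM, 36.9 to 37.7 CPM in the others) and for Rpl8 (213.9 CPM, 154 to 163 CPM in the others). Rps29 in WT-S mouse 3 was at 1.97 CPM, with 1.14 to 1.19 CPM in the others.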

How the results depend on the processing

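By comparison, the number of ribosomal protein genes called ranged over the fits that left out 1 mouse each from 4 to 8 in 3xTg-D vs WT-D, 3 to 17 in 3xTg-S vs WT-D, 0 to 4 in 3xTg-S vs 3xTg-D, 0 to 6 in WT-S vs WT-D, 3 to 23 in 3xTg-S vs WT-S and 0 to 5 in the interaction. In the same order, 3.95 to 5.55, 4.03 to 9.38, 0.413 to 4.87, 0.134 to 3.13, 3.13 to 6.03 and 0.34 to 2.96% of all genes were called. The median over members stayed on 1 side of 0 in these fits, except in 3xTg-D vs WT-D (-0.02 to 0.15). The 5 calls in 3xTg-D vs WT-D were 3 with all 16 mice in one fit, beside 4.23% of all genes, where Rpl3 and Rpl15 missed the threshold. They were also 3 at an adjusted p of 0.05, beside 1.85% of all genes. Rpl3 missed the unadjusted threshold with DESeq2 as well. Without the filter on low counts, 2 members were called in 3xTg-S vs 3xTg-D, Rplp0 among them, and 8 in 3xTg-S vs WT-S, beside 1.14 and 3.44% of all genes; Rpl3 was then called in 3xTg-S vs WT-D. With the share of reads outside genes as covariate, 7 were called in 3xTg-S vs WT-D, beside 8.37% of all genes, and the interaction's median moved from -0.28 to -0.0968. The pairing of replicate numbers was not shown in 3xTg-S vs 3xTg-D (correlations 0.0158 to 0.391, and 4 of 8 mice correlated best with their own number). With them as a block, 20 members were called there, all lower and 4 of them at an adjusted p of 0.05, 14 in 3xTg-S vs WT-S (12 lower) and 8 in the interaction, all lower, beside 6.88, 8.13 and 3.79% of all genes. The counts were 7 in 3xTg-D vs WT-D and 4 in 3xTg-S vs WT-D, beside 5.73 and 6.53%. In WT-S vs WT-D, where every same-numbered pair correlated over 0.1, the block called no member either. It called 0.698% of all genes there, in place of 0.188%. The mean correlation of same-numbered mice was 0.217 in WT-S vs WT-D, 0.213 in 3xTg-S vs 3xTg-D and 0.241 in 3xTg-S vs WT-S. The sample titles give the numbers only, so whether they pair the mice is not known in any comparison. With all reads as denominator, the members' share was 0.306% for WT-D, 0.323% for WT-S, 0.328% for 3xTg-D and 0.277% for 3xTg-S mice. The median level was 32.7 RPKM by the length of the principal transcript, in place of 15.1 RPKM. With the start allowed to shift, a tract was found in 50% of the 60 members that had a start site. Of the 25 log2 fold changes of single members that were refitted under every alternative, 1 changed sign, the interaction of Rpl34 (-0.09). It ranged from -0.22 to 0.10 with 1 mouse left out, at 0.05 without 3xTg-D mouse 2 and 0.10 without WT-S mouse 3. In 3xTg-D vs WT-D, 20 of the 36 members under the naming rule changed sign with the covariate and 12 without 3xTg-D mouse 2, all of them uncalled and with no fold change given for that comparison. The cause of these changes was not tested. Members of few counts, such as Rps29 and Rps10, are limited most by depth.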
